A study of Mus musculus with 41 samples.

Results

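Chromosome 11 of the mouse, which carries both Nf2 and Trp53, was examined in low-coverage genome sequencing of 14 mesothelioma tumors. All 5887 bins of chromosome 11 were taken, out of 114391 autosomal bins and 122257 bins in all, each 20000 bp long, and none was chosen by its value. They cover 96.4% of the chromosome in the mm10 build, from base 3200001 to base 121980000, and every one had a value in every tumor. A bin value is the log2 of its corrected read count minus the median autosomal bin of the same tumor, so 0 is the typical autosomal read depth and -1 is a halving.

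The GEO labels describe 10 tumors of genotype Bap1-/-;Nf2-/-;Cdkn2ab-/- (BNC) and 4 of genotype Nf2-/-;Cdkn2ab-/- (NC). Per the study's methods, tumors arose after an adenovirus carrying Cre under the CMV promoter was injected into the chest of mice of mixed strain background, which deletes the conditional alleles in the cells it infects. The study also states that Cdkn2ab mice lack Ink4a and Ink4b from the germline and carry a conditional Arf. Every tumor therefore carries the Nf2 and Cdkn2ab alleles, and there is no tumor group with intact Nf2. The labels give no age, and the study's methods give one only for the start of treatment. Those methods also state that the mice drank water with cyclosporine A before and after the virus was given. The 14 data columns are named by tumor codes (B2 to B31) that show no genotype, so BNC and NC tumors were not compared. The names also hold a site code (Eso, Diaphragm, or RC), and sites were not compared. Tumors B20 and B21 carry the same mouse number in their names, with site codes RC and Eso, and may come from 1 animal.

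Nf2 encodes merlin, a membrane-linked tumor suppressor that restrains growth through the Hippo kinases, and it is frequently inactivated in human mesothelioma. Trp53 encodes p53, which halts or kills cells with damaged DNA and is switched on by the Arf protein of the Cdkn2a locus. Both genes lie on the same chromosome in the mouse but on different ones in humans, so a loss of the whole mouse chromosome would lower both. Deletion of a single conditional exon is a much smaller event, and read depth shows it only if the bin is not much longer than the deleted part.

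The methods refer to a published conditional Nf2 allele, which is known for a floxed exon 2. The exon is printed here because its size sets what a bin can show. The sequence is from GRCm38 (mm10), minus strand, chr11:4820348-4820513, 5′ to 3′, with the exon in capitals and 20 bases of intron on each side in lower case.
Nf2 exon 2: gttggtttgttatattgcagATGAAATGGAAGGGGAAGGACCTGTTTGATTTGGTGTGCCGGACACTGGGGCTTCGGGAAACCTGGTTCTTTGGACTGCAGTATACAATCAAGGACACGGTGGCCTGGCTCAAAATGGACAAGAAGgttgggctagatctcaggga
The exon is 126 bases long (4820368 to 4820493, exon 2 of 16 in the transcript with the longest coding sequence) and takes up 0.63% of its bin. It lies between an intron 1 of 28378 bases and an intron 2 of 1740 bases. The end points of the deletion were not given in the sources used here, and the number of reads per bin is unknown because the file used holds log2 values.

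The X chromosome and other autosomes gave the scale. The X chromosome stood between -1.05 and -0.98 in 6 tumors (B5, B19, B20, B21, B23, and B25) and between -0.016 and 0.030 in the other 8, which places 1 copy against 2 near -1. Chromosome 19 reached a level (its median bin) of 0.30 in B28 and 0.17 in B31, and chromosome 17 a level of 0.16 in B25. Shifts of that size in a chromosome's level were therefore measured here. Whether they spanned the whole chromosome was not tested. The share of tumor cells in each sample is not known, and normal cells would draw any tumor change toward 0. The labels give the Cdkn2ab deletion to all 14 tumors, but the bin of Cdkn2b was at -0.065 in B5. The chromosome level, both genes, the called bins, the windows, and the segments are therefore also given without B5.

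No tumor had a shift in the level of chromosome 11 of the size seen on chromosomes 17 and 19. The chromosome level, the median of its bins, was lowest at -0.025 in B26, had a median of -0.013, and was highest at -0.0033 in B5. It lay below 0 in 14 of 14 tumors, with a mean of -0.013 ± 0.0054 (SD, n = 14), a difference of -0.912% in read depth. Over the 14 tumors the mean differed from 0 (p = 0.000122, adjusted p = 0.000366 over 3 tests, two-sided exact sign-flip permutation test). In that test 0.000122 is the smallest p that 14 tumors allow. The 3 tests were chosen with earlier results of these data known, which the adjustment does not cover. Without B5 the mean was -0.014 (p = 0.000244, adjusted p = 0.000732, same test). The share of autosomes with a level below 0 in every tumor was 26.3%, 5 of 19, so chromosome 11 shares this with chromosomes 4, 5, 7, and 10.

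**Figure D1:**
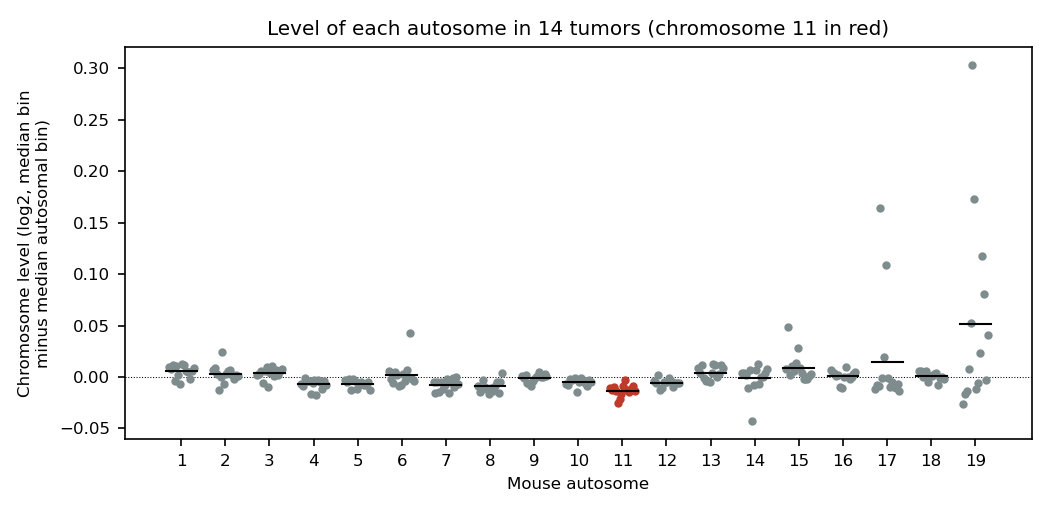
Chromosome level of each of the 19 autosomes (x axis) on the log2 scale (y axis). Each point is 1 of 14 tumors, the short line is their mean, and chromosome 11 is red. The 14 points of chromosome 11 lie between -0.025 and -0.0033, while single tumors reach 0.30 on chromosome 19.

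Chromosome 11 had the lowest mean level of the 19 autosomes and ranked lowest within 6 tumors. Set against each other autosome in the same tumors, it was lower than 17 of 18 at an adjusted p under 0.05 (exact sign-flip permutation test, Benjamini-Hochberg over 18 comparisons, made after the data were seen). The exception was chromosome 8, where the difference was -0.0041 ± 0.0079 (SD, n = 14) and chromosome 11 was lower in 9 of 14 tumors (adjusted p = 0.0773, exact permutation). Chromosome 11 was also lower than chromosome 19 in only 9 of 14 tumors, with a difference of -0.065 ± 0.096 (SD, n = 14) that passed. Chromosome 11 also had the highest mean content of G or C bases of the 19, 43.8%. Across the 17 autosomes other than 17 and 19, mean level and G or C content had a Spearman correlation of -0.57, and across all 19 of -0.25. The authors had corrected read counts for GC content before deposit. These points share the same 14 libraries, and the part of base content in the shift was not tested.

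Single bins were noisy. The SD between neighboring bins, estimated from their differences, was 0.107 in the least noisy tumor, 0.127 in the median tumor, and 0.141 in the noisiest, B5. Between 79.7% and 90.7% of chromosome 11 bins lay within 0.2 of the typical level, and between 98.6% and 99.8% within 0.5. Profiles of different tumors resembled each other weakly. Pearson correlations over the 5887 bins ran from 0.0557 to 0.212 in 91 pairs, with a median of 0.157, and B20 and B21, which share a mouse number, had 0.157. Over all autosomal bins the pairs ran from 0.152 to 0.401.

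The 5 bins over Nf2 (ENSMUSG00000009073, chr11:4765845-4849536, minus strand) stayed close to the level of the chromosome in each tumor. Their mean was lowest at -0.15 in B31, had a median of -0.035, and was highest at 0.074 in B16. The lowest corresponds to 90.0% of the typical read depth, against 50% for 1 lost copy in every cell. Relative to the median of chromosome 11 in the same tumor the mean was -0.019 ± 0.067 (SD, n = 14), with 9 of 14 tumors below 0. This mean difference was not distinguished from 0 (p = 0.297, adjusted p = 0.297, exact sign-flip permutation test), and its 95% interval ran from -0.058 to 0.019. Against the bins within 1 Mb on each side the mean was -0.0056 (p = 0.7, exact permutation). Without B31 the difference from chromosome 11 was -0.010 and without B26 -0.011 (p = 0.543 and 0.524, exact permutation over 13 tumors). Of all 5883 stretches of 5 listed bins on the chromosome, 31.2% had a lower mean over tumors.

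Among the 5 bins the order changed from tumor to tumor. The bin that holds the first exon and promoter (4840001 to 4860000) was lowest at -0.25 in B16, had a median of -0.10, and was highest at 0.22 in B28. The bin that holds exon 2 (4820001 to 4840000) was lowest at -0.31 in B31, had a median of 0.0034, and was highest at 0.20 in B12. In both bins tumors fell on either side of 0, with 9 and 6 of 14 below it. No bin of Nf2 differed from the autosomal level in a limma fit over all autosomal bins, where the smallest unadjusted p was 0.16 and the smallest adjusted p was 0.475. The exon 2 bin alone was -0.030 ± 0.14 (SD, n = 14) from the chromosome 11 median (p = 0.431, exact sign-flip permutation test). A bin in which the exon takes up 0.63% cannot show the loss of that exon by itself.

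Trp53 (ENSMUSG00000059552, chr11:69580359-69591873, plus strand) lies within 1 bin, 69580001 to 69600000, and 64.7 Mb from Nf2. Its value was lowest at -0.24 in B2, had a median of -0.050, and was highest at 0.28 in B28. B28 stood above the rest, the next highest being 0.11 in B13, and 10 of 14 tumors lay below 0. Relative to chromosome 11 the mean was -0.041 ± 0.14 (SD, n = 14), which was not distinguished from 0 (p = 0.295, adjusted p = 0.297, exact sign-flip permutation test, 95% interval from -0.12 to 0.040). Without B28 the mean was -0.067 (p = 0.0403, adjusted p = 0.0605, exact permutation over 13 tumors). Against the bins within 1 Mb on each side it was -0.0060 (p = 0.87, exact permutation). A single bin has the noise given above, and the SD of the Trp53 bin over tumors, 0.138, was near the median of 0.122 over all chromosome 11 bins.

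A labelled deletion on another chromosome was read in the same way. Per the study, Ink4a and Ink4b are deleted in the germline, hence in normal cells too, while conditional Nf2 is deleted only in cells with Cre. The events are unlike, so Nf2 values near 0 beside those of Cdkn2b do not show that Nf2 was retained. The bin of Cdkn2b, an inhibitor of cyclin-dependent kinases on chromosome 4, was lowest at -1.66 in B21, had a median of -0.99, and was highest at -0.065 in B5. The mean of the 2 bins of Cdkn2a was lowest at -0.95 in B21, had a median of -0.35, and was highest at -0.088 in B23. Loss of both copies over a whole bin would lie far below -1, so the Cdkn2b bin did not read as such a loss in most tumors. The gene takes up 23.7% of that bin, and the ends of the deletion were not given in the sources used here. Every tumor's Cdkn2b value was below its Nf2 and Trp53 values, in B5 by the least. B5 had -0.065 for Cdkn2b beside 0.064 for Nf2 and 0.056 for Trp53, and its Cdkn2a value was -0.29. Without B5 the Nf2 difference from chromosome 11 was -0.026 (p = 0.173) and that of Trp53 -0.048 (p = 0.242, exact sign-flip permutation tests).

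**Figure D2:**
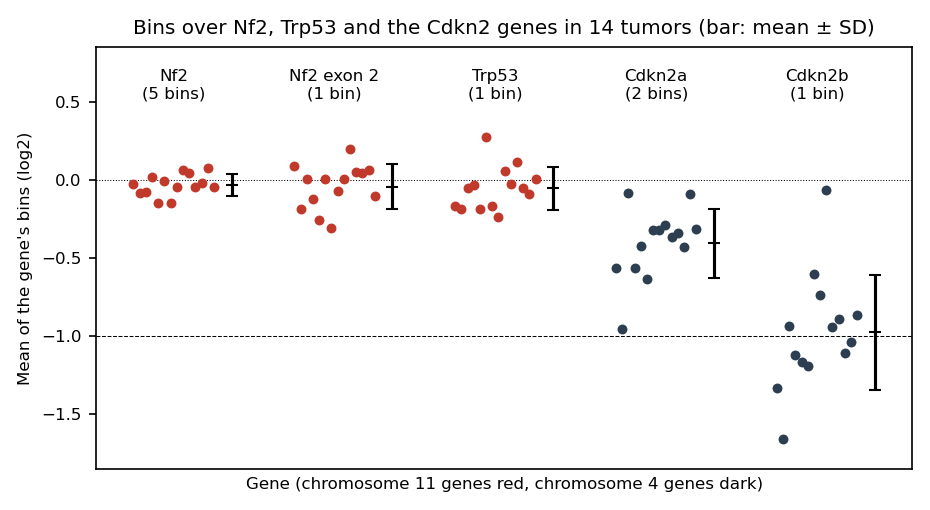
Mean log2 value of the bins over each gene (y axis) for Nf2, its exon 2 bin, Trp53, Cdkn2a, and Cdkn2b (x axis). Points are the 14 tumors, bars show mean ± SD, the dotted line is the typical autosomal bin and the dashed line a halving. The chromosome 11 genes lie around 0 in every tumor and the Cdkn2b bin has a median of -0.99. Per the study, Ink4b is deleted in the germline and Nf2 conditionally.

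Other cancer and chromatin genes of chromosome 11 were read from a list of 35, all of which overlapped bins. Their medians over tumors ran from -0.21 for Sox9, a transcription factor of development, to 0.015 for Flcn, the tumor suppressor folliculin, and 30 of 35 lay below 0. Sox9 was lowest at -0.47 in B25 and highest at 0.0011 in B16. Flcn was lowest at -0.16 in B14 and highest at 0.10 in B26. None of the 490 values of a gene in a tumor was beyond 0.5 in either direction, and 49 were beyond 0.2. The median over the 35 genes was -0.036, against -0.011 over all chromosome 11 bins.

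The lowest medians after Sox9 belonged to Cbx8 at -0.18, Axin2 at -0.16, and Cbx2 at -0.16, named after their values were seen. Cbx2 and Cbx8 encode chromobox subunits of the polycomb repressive complex PRC1, and Axin2 an inhibitor of Wnt signaling. Sox9, Cbx2, Cbx8, and Axin2 lay below 0 in 13 of 14 tumors each. The single bin of Cbx2 is also 1 of the 2 bins of Cbx8, so these 2 genes are not separate readings. A bin was called when its limma adjusted p was under 0.05 and its mean over tumors at least 0.1 from 0. By that rule 14 of the 125 bins over list genes (11.2%) were lower, against 2.82% of all autosomal bins, and 0 were higher, against 1.05%. The 12 genes with a lower bin had a median G or C content of 49.9%, and the other 23 one of 45.0%, and the part of base content was not tested.

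Of the 5887 bins of chromosome 11, 228 (3.87%) were called lower across tumors, against 2.82% of all autosomal bins. Another 22 (0.374%) were called higher, against 1.05%. With the chromosome 11 median as centre in place of the autosomal one, 149 were lower and 58 higher. Without B5, 284 were lower and 34 higher. The autosomal shares given apply to the main setting only. The called lower bins were mostly small shifts, with a median mean of -0.14, and had a median G or C content of 46.9%, against 43.6% over all chromosome 11 bins and 39.8% in the higher bins. They were denser from 95 Mb to the end, with 86 of 1341 bins (6.41%), than before it, with 142 of 4546 (3.12%), a boundary set after the data were seen. Over the 5887 bins, which share 14 libraries, mean value and G or C content had a Spearman correlation of -0.43.

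Over stretches of 5 Mb the chromosome was flat to within a few hundredths of a log2 unit. In 25 windows and 14 tumors the 350 window medians lay between -0.067 and 0.058 from the chromosome 11 median of the tumor, and none was beyond 0.1. The lowest of these was B5 at 10 to 15 Mb, and without B5 they lay between -0.061 and 0.058. The windows at 95 to 100 and 115 to 120 Mb had medians over tumors of -0.035 each, below the chromosome median in 13 and 14 of 14 tumors, and G or C contents of 47.2% and 50.5%. The window at 25 to 30 Mb had a median of 0.034 and the lowest G or C content, 38.8%. The Nf2 window, 0 to 5 Mb, stood at -0.011, and the Trp53 window, 65 to 70 Mb, at -0.00015. Over the 25 windows the Spearman correlation with G or C content was -0.83.

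**Figure D3:**
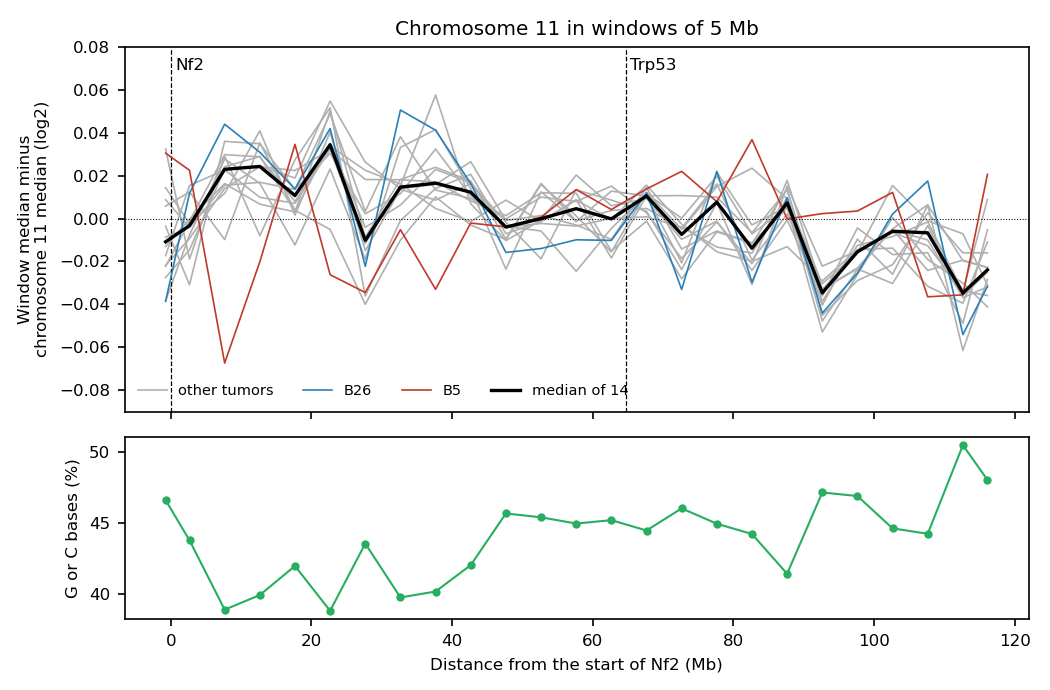
Upper panel, median bin of each 5-Mb window minus the chromosome 11 median (log2, y axis) against distance from the start of Nf2 (Mb, x axis), 1 line per tumor with B5, B26, and the median of 14 tumors drawn out. Lower panel, G or C content of the same windows (%). All lines stay between -0.067 and 0.058, and Nf2 and Trp53 are marked by dashed lines.

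Segmentation divided each tumor's chromosome 11 into stretches of at least 10 bins with different means, and a segment was called when its median was at least 0.2 from 0. It placed 71 breakpoints in 14 tumors, between 2 in B2, B13, B20, and B23 and 17 in B5, with 10 in B26. Without B5 there were 54 breakpoints and 9 called segments. In 30 of the 71 the segments on either side differed by less than 0.1 in median, and the median step was 0.12. Of 85 segments, 11 (12.9%) were called lower, against 21.3% of all autosomal segments, and 0 higher, against 4.97%. The called segments lay in 7 tumors, covered 2.40 Mb summed over tumors, and none was longer than 0.34 Mb. On chromosome 19 called segments covered 68.6 Mb and the longest was 31.6 Mb. No segment of 50 or more bins was called on chromosome 11, and neither Nf2 nor Trp53 lay in a called segment.

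Positions of breakpoints were partly shared. A breakpoint at 121760001 or 121780001, close to the end of the chromosome, occurred in 9 tumors (B2, B5, B12, B14, B19, B20, B21, B23, and B25), and the terminal segment after it was called in 6 of them. This position follows from the shortest segment allowed, since the last 10 bins start at 121780001. With segments of 3 bins a lower terminal segment was called in all 14 tumors, starting between 121860001 and 121920001, with medians between -1.13 and -0.56. Another group, 9 breakpoints between 94460001 and 94960001, came from 5 tumors (B13, B16, B19, B21, and B26), with called segments in B21 and B26. The remaining called segments were each in 1 tumor, at 91920001 to 92140000 in B5 (median -0.40), and at 58660001 to 58880000 (median -0.33) and 71140001 to 71340000 (median -1.94) in B26.

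**Figure D4:**
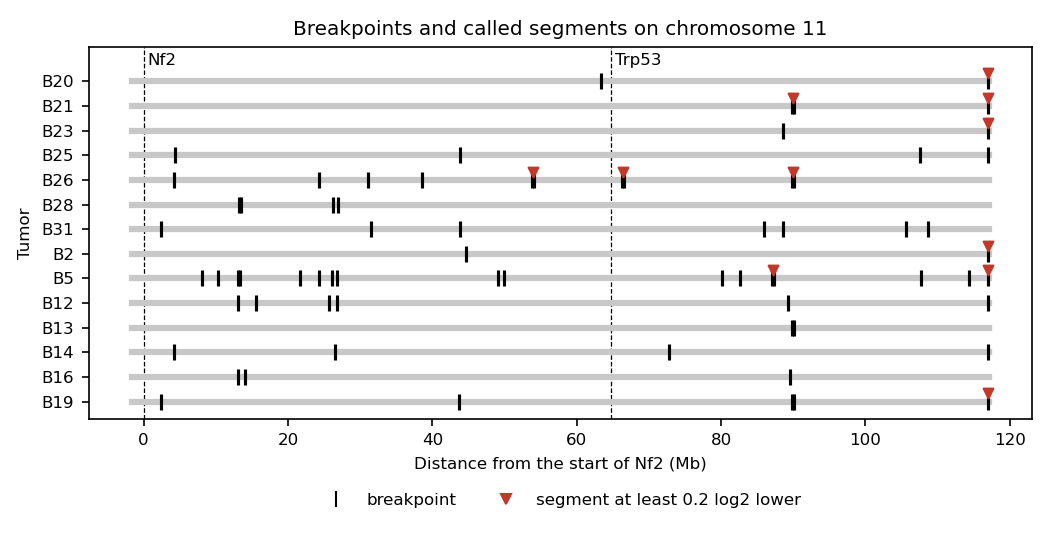
Breakpoints (black ticks) and segments at least 0.2 log2 lower than the typical level (red triangles) along chromosome 11 in each of 14 tumors (rows), by distance from the start of Nf2 (Mb, x axis). B5 has 17 breakpoints and B26 has 10, and triangles recur at the far end and near the breakpoints between 94460001 and 94960001.

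The longer segments of B5 were shallow. A stretch of 110 bins at 12920001 to 15120000 had a median of -0.18, and one of 128 bins at 84980001 to 87540000 had a median of 0.11. Brip1, a DNA helicase gene inside the second stretch, had its highest value in B5, at 0.27, and a median of -0.00048 over the 14 tumors. Ppm1d, also inside it, was highest in B5 at 0.13. Tbx2 and Rad51c, inside it too, were highest in B2 at 0.095 and in B21 at 0.070. Outside the stretch, Ncor1 and Xpo1 reached 0.258 and 0.255 in B5. These genes were named after their values were seen. B5 held the highest value of 11 of the 35 list genes. B5 was also the noisiest tumor, as given above, and the part of that noise was not tested.

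The deepest change on chromosome 11 was a short loss in B26, 1.57 Mb beyond the end of Trp53. It was found as a run of at least 3 neighboring bins beyond 0.5 in the same direction, a rule set after the data were seen. The 7 bins from 71160001 to 71300000 held -0.71, -1.49, -6.37, -4.61, -4.58, -4.21, and -2.38 in B26. In the other 13 tumors the mean of these bins was between -0.093 and 0.067. The lowest bin, 71200001 to 71220000, had 1.21% of the typical read depth, and over the 7 bins the mean depth was 18.7%. The Nf2 and Trp53 levels of B26 were -0.15 and -0.19.

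The run covers 91.1% of Nlrp1b (71153102 to 71230733, minus strand) and the whole of the pseudogene Nlrp1c-ps (71242430 to 71285232). Depth was uneven over Nlrp1b. In B26 the bins starting at 71160001 and 71180001 kept 61.3% and 35.7% of the typical read depth. Those starting at 71200001 and 71220001 held 1.21% and 4.1%. Nlrp1b encodes an inflammasome sensor that responds to proteases of pathogens such as the anthrax lethal factor. Its neighbor Nlrp1a, another sensor of the family, ends at 71144704, outside the run, and the bins that lie over Nlrp1a alone held 0.18, -0.00020, and -0.21 in B26. Nlrp1 genes are similar in sequence, so reads of one copy can be placed on another or discarded. The promoter of Nlrp1b falls in a lost bin, whose value was -4.61 in B26, and is printed to mark the site. It comes from RefSeq (GRCm38.p6), chr11:71230684-71230983, minus strand, 5′ to 3′, with the first 50 transcribed bases in capitals.
Nlrp1b promoter: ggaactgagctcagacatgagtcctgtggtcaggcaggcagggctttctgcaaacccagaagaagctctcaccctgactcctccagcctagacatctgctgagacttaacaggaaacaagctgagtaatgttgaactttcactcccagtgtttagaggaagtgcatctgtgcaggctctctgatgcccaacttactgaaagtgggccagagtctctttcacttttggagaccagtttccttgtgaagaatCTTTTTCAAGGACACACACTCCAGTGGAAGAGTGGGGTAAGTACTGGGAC
Normal tissue of the same mouse was not analysed here, so an inherited loss and a loss in the tumor cannot be told apart. Each of the 14 tumors had between 2 and 8 autosomal runs with a mean below -2.

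**Figure D5:**
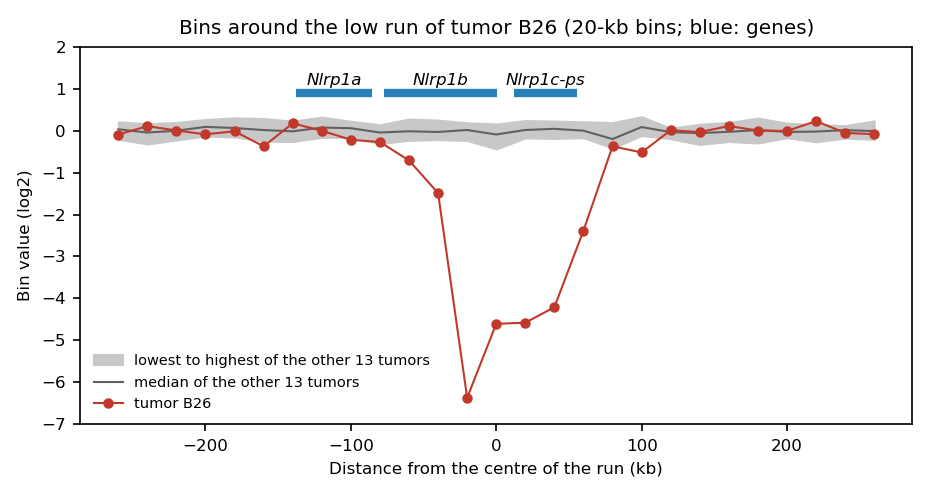
Bin values (log2, y axis) by distance from the centre of the run in B26 (kb, x axis). The red line is B26, the gray band runs from the lowest to the highest of the other 13 tumors, and blue bars are Nlrp1a, Nlrp1b, and Nlrp1c-ps. B26 falls to -6.37 while the other tumors stay between -0.43 and 0.34.

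Runs of this kind were otherwise few on chromosome 11. There were 13 in 11 tumors, all of them lower, and they held 0.0607% of the chromosome's bin values, against 0.129% over all autosomes. Apart from the run over Nlrp1b, 11 lay at the end of the chromosome, where no coding gene is annotated, and 1 lay at 94780001 to 94840000 in B19, over Tmem92. B16, B28, and B31 had no run on chromosome 11.

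A small number of bins moved the same way in every tumor. Of 5887 bins, 24 (0.408%) were below 0 in all 14 tumors, against 0.387% of autosomal bins, and 4 (0.0679%) were above 0, against 0.192%. The 5 lowest by median were the last 4 bins of the table, 121900001 to 121980000, with medians of -0.47, -0.68, -0.71, and -1.07, and the bin 94800001 to 94820000. That bin holds a noncoding gene, AA623943, and was lowest at -2.77 in B26, had a median of -0.96, and was highest at -0.15 in B31.

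The 4 bins above 0 in every tumor included a single large one. The bin 54140001 to 54160000, over the noncoding gene Gm12221, was lowest at 1.11 in B26, had a median of 1.65, and was highest at 1.86 in B16, which is a median depth 3.14 times the typical one. Bins within Dock2 (34680001 to 34700000), a regulator of leukocyte migration, and Msi2 (88580001 to 88600000), an RNA-binding protein, had medians of 0.32 and 0.33 and ran from 0.12 to 0.57 and from 0.14 to 0.52. By limma with Benjamini-Hochberg adjustment over all autosomal bins, these 3 bins passed (adjusted p = 1.01e-21, 4.63e-08, and 6.66e-08), while the fourth, 90120001 to 90140000 with a median of 0.065, did not (adjusted p = 0.197). For bins shifted alike in all tumors, an inherited difference from the reference and a property of the bin cannot be told apart without normal DNA.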

How the data were processed

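Genomic DNA of 14 tumors was analysed. The authors aligned single-end reads to mm10 with BWA 7.10, counted reads in 20-kb bins with an adapted CopywriteR, and normalized for GC content and mappability, per the methods. The deposited values are log2 read counts (handled as a score because a large negative filler stands in empty bins, 535 to 782 per tumor and 0 on chromosome 11, which were treated as missing). Whether the deposited log2 values include the authors' ratio to normal tail is not stated. Depth per bin is unknown, so no counting error can be given and precision rests on the spread between tumors.

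The 14 columns were mapped to the tumor DNA group as a whole, since their names give neither sample number nor genotype. They hold 13 mouse numbers for 14 tumors, so the tumors may not all be independent, which the p-values assume. The RNA table, with 15 columns, was not used. Each column was centred on its median autosomal bin. Exact sign-flip permutation tests used 14 tumors, and limma 3.58.1 in R 4.3.3 fitted an intercept to every autosomal bin. Segmentation was by exact least squares (penalty 3 times the log of the number of bins, shortest segment 10). Scripts in Python 3.11.15 and limma were tested on simulated data. Genes and exons come from GENCODE M21, promoters from RefSeq.

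The bins, gene list, and tests were chosen with earlier results of these data known. The named genes were Nf2, Trp53, Cdkn2a, and Cdkn2b, the lowest and highest of 35 list genes by median, and the 5 lowest and 5 highest bins among those of the same sign in every tumor, of which only 4 were above 0. Genes named outside this rule are said to be so or overlap a bin described. Alternatives were another centre, reference, penalty, segment length, or threshold, leaving out each tumor, and, added after the data were seen, shorter segments, other run rules, called bins without B5, and 1 tumor per mouse number.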

Additional observations from a re-analysis of the deposited data

How the results depend on the processing

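The shift of chromosome 11 kept its direction with the trimmed centre, without bins off by 1 log2, without each tumor, and with 1 tumor per mouse number. The means of the Nf2 and Trp53 differences, from which the centre cancels, kept theirs with nearby bins as reference, without each tumor, and with 1 tumor per mouse number. The exon 2 bin alone had a mean of -0.030 but a median of 0.013, with 6 of 14 tumors below 0. Leaving out each tumor gave means from -0.014 to -0.012 for the chromosome, from -0.027 to -0.010 for Nf2, and from -0.067 to -0.026 for Trp53, where only the value without B28 (p = 0.0403, exact permutation, adjusted p = 0.0605) passed 0.05 before adjustment. Counts depended more on the settings. Called lower and higher bins numbered 149 and 58 with the chromosome 11 median as centre, 284 and 34 without B5, and 40 and 6 when a mean of at least 0.2 was required. Called segments numbered 22 with 0.5 of the penalty, 24 at a threshold of 0.1, 39 with a shortest segment of 3 bins, and 0 with one of 50. Breakpoints numbered 232 with 0.5 of the penalty, 29 with 2 times the penalty, and 107 with segments of 3 bins. Runs numbered 1 at a threshold of 1, 22 with 2 bins, and 7 with 4. The cause was not tested. The comparison of BNC with NC, its version without each NC tumor, and the replicate block were not run. No paired analysis was possible because the columns carry neither sample number nor genotype. Losses shorter than a bin, and shallow ones in mixed samples, are limited by the bin noise.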

Other observations

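Tumors differed most from each other at few bins of chromosome 11. The SD over tumors exceeded 0.5 in 7 of 5887 bins, against 261 of all 114391 autosomal bins. Of the 7, 5 belong to the run over Nlrp1b in the single tumor B26. Of the other two, the bin 94800001 to 94820000 is described above. The bin 18180001 to 18200000, with no coding gene, ran from -2.02 in B5 and -1.72 in B28 to 0.15 in B14. These bins were chosen after their values were seen.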
